A study of Homo sapiens with 12 samples.

Results

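The 36 genes described here encode proteins that repair DNA or signal its damage, and they were chosen by name from homologous recombination, the Fanconi pathway, mismatch repair, end joining, base excision and the checkpoint. Their RNA was measured on 12 Affymetrix arrays of MDA-MB-231, an established human breast cancer line that is triple-negative and mesenchymal. Of the 36 genes 33 were measured, among 11963 genes in all; where a gene had several probe sets, its brightest on average was read. RBBP8, BRCA2 and FANCA are not analysed here.

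Cells had been kept for 24 h in 5 uM SAHA plus 2.5 mM pargyline, in 5 uM SAHA alone, in 2.5 mM pargyline alone or in the vehicle DMSO, with 3 biological replicates in each of the 4 groups. SAHA (vorinostat) inhibits histone deacetylases. Pargyline inhibits monoamine oxidases and can inhibit the histone demethylase LSD1. All groups come from 1 cell line, with 1 dose and 1 time, and the labels do not say how the cultures of a group were kept apart, so that p-values measure the spread between these cultures.

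Homologous recombination repairs a double-strand break from an intact copy: the ends are trimmed, the single strand is coated, and the coated strand is carried into the matching duplex. The Fanconi pathway feeds crosslinked DNA into the same steps, end joining seals breaks without a copy, and mismatch and base excision repair correct single bases. Checkpoint kinases hold the cell cycle while this goes on. Many genes of recombination and the replication checkpoint are transcribed mainly in dividing cells, from late G1 into S phase.

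All values are log2 intensities, so that a difference of 1 is a 2-fold change, and errors of changes are standard errors from the model. A gene is said to have risen or fallen where its Benjamini-Hochberg adjusted p in limma, over all 11963 genes, was under 0.05. Further probe sets of a gene were fitted apart and adjusted over the 19064 probe sets with 1 gene, at the same threshold. Array medians lay between 5.15 and 5.38, and replicate arrays correlated with r from 0.998 to 0.999 across probe sets. Of the 4 genes listed as high in this line, VIM, CD44, CAV1 and AXL, all had group means of 11.56 or more. Of the 4 listed as low, ESR1, PGR and CDH1 stayed at or under 3.15, whereas GATA3 averaged 5.75 with SAHA plus pargyline, 6.27 with SAHA, 9.42 with pargyline and 9.23 with DMSO. The 3 leukocyte markers (PTPRC, CD3D, CD14) lay between 1.78 and 2.55 in every group, and the 5 fibroblast markers between 1.96 and 6.31, with COL1A1 the brightest.

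With SAHA plus pargyline, 23 of the 33 repair and checkpoint genes fell and 2 rose relative to DMSO, against 24.0% of all genes lower and 24.3% higher. Their median change was -0.55, beside -0.01 for all genes. With SAHA alone 17 fell and 3 rose, where 23.1% of all genes were lower and 23.0% higher, and the median change was -0.29 beside 0.00. With pargyline alone 6 fell and 0 rose, where 7.45% of all genes were lower and 8.48% higher, and the median change was -0.21 beside -0.02. In these whole cultures, fewer cells that express a gene and less of its RNA per cell cannot be told apart.

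The mean log2 level of the 33 genes was 8.84 to 9.03 over the arrays with both drugs, 9.27 to 9.39 with SAHA, 9.41 to 9.51 with pargyline and 9.68 to 9.70 with DMSO. The groups did not overlap, and they ran in that order from low to high. Within the SAHA plus pargyline group, replicate 2 was the lowest array for 20 of the 33 genes, and the median SD over the genes was 0.19 there, 0.14 with SAHA, 0.10 with pargyline and 0.08 with DMSO.

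The size of these falls differed between the groups. Of the 33 genes, 11 fell at least 2-fold with both drugs (NBN, BRCA1, BARD1, RAD51AP1, RAD54L, RAD52, FANCG, FANCI, CHEK1, TIMELESS and UNG), where 9.76% of all genes did. With SAHA alone 5 did (NBN, BARD1, RAD51AP1, RAD54L and UNG), where 8.75% of all genes did. With pargyline alone 0 did, where 7.45% of all genes were lower by any amount and their 2-fold falls were not counted. FANCG, XRCC6 and TIMELESS fell in all 3 comparisons with DMSO (4.18% of all genes). BLM, XRCC3, RPA1, RECQL4, ATM, ATR and CHEK2 passed in none of the 3, as did 44.5% of all genes.

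**Figure D1:**
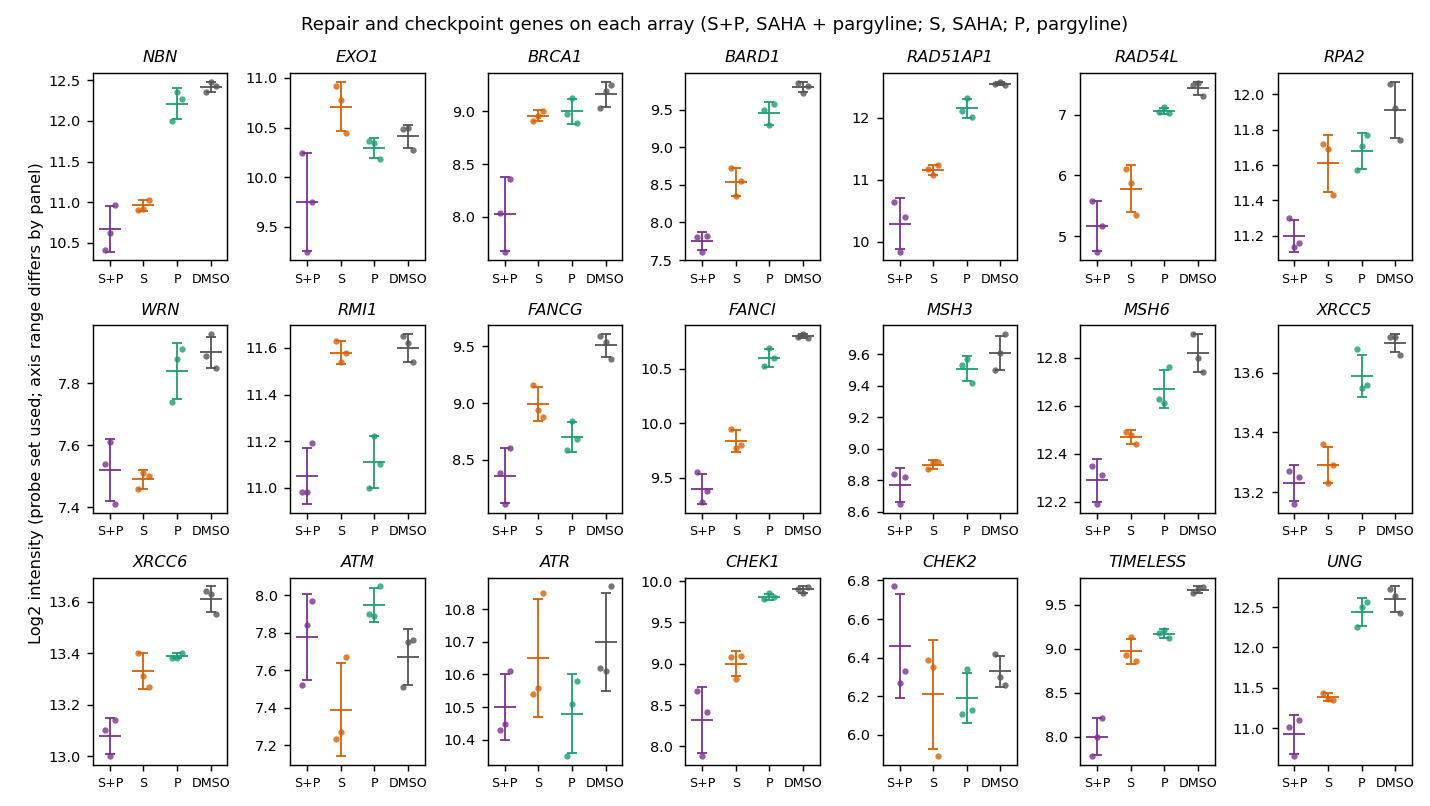
Log2 intensity (y axis, own range in each panel) of 21 of the repair and checkpoint genes on each array, by treatment (x axis: SAHA plus pargyline, SAHA, pargyline, DMSO); points are arrays, long lines group means and bars 1 SD (n = 3). In most panels the SAHA plus pargyline arrays lie lowest and the DMSO arrays highest, RMI1 is low in both groups with pargyline, and CHEK2 overlaps in all groups.

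The 250 bases before the transcription start are shown for 6 of the genes, to set the promoter letters of genes that fell beside those of a gene that rose. The sequences are RefSeq's, on GRCh38.p14, read 5′ to 3′ on the gene's strand. Capitals mark the words CCAAT (or ATTGG, its other strand) and the E2F-type words TTTCCCGC, TTTCGCGC, TTTGCCGC and TTTGGCGC, searched on both strands, with overlapping matches merged. RAD54L, RAD51AP1 and TIMELESS are shown as genes that fell by over 2-fold with both drugs and hold CCAAT, BARD1 as one that fell as far and does not, MSH3 because it alone held an E2F-type word, and MRE11 because it rose. They lie at chr1:46247438-46247687 on the plus strand for RAD54L, chr12:4538640-4538889 on the plus strand for RAD51AP1, chr12:56449427-56449676 on the minus strand for TIMELESS, chr2:214809684-214809933 on the minus strand for BARD1, chr5:80654402-80654651 on the plus strand for MSH3 and chr11:94493845-94494094 on the minus strand for MRE11.
RAD54L: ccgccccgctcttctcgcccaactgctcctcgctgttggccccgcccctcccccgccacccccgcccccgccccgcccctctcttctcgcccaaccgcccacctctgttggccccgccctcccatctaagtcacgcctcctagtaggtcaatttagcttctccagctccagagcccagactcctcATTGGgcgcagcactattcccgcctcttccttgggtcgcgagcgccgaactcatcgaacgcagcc
RAD51AP1: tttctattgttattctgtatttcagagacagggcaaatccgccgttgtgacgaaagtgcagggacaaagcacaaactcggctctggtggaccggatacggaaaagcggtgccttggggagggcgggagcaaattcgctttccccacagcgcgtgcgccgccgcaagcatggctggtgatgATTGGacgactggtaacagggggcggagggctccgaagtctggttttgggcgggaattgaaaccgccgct
TIMELESS: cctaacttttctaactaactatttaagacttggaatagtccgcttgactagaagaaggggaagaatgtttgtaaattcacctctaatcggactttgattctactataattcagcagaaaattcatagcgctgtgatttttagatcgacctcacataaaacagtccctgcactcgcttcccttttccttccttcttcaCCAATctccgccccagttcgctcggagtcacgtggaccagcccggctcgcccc
BARD1: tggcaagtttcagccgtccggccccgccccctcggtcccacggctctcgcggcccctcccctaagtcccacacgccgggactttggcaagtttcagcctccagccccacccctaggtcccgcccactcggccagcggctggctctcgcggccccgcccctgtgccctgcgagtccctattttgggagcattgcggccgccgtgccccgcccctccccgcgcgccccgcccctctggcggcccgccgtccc
MSH3: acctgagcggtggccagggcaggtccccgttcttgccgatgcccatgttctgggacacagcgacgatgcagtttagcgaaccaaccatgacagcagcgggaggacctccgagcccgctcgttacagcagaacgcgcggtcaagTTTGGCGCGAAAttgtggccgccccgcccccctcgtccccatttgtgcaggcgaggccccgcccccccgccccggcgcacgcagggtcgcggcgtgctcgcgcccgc
MRE11: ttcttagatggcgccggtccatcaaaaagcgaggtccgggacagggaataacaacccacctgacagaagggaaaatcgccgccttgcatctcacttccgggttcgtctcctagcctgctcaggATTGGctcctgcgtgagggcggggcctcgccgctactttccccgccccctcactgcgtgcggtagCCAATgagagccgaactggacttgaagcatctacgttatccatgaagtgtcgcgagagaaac
Promoters were found for 26 of the 33 measured genes. CCAAT stood in 13 of the 26 and in 33% of 27305 promoters in the table. It stood in 7 of the 17 genes that fell with SAHA plus pargyline and in 6 of the other 9. Of the genes that fell by over 2-fold, CHEK1 also held it, and BRCA1, RAD52, FANCG and UNG, like BARD1, did not in the window searched. Each gene was read at 1 start, the first listed (for BRCA1 the window chr17:43170328-43170577), and any other starts were not searched. An E2F-type word stood in 1 of the 26 (MSH3) and in 2.79% of all promoters, and the word TTTGAA, known from the cell cycle homology region, in 1 (ATM) and in 13.6%. These are matches of letters in a fixed window and show neither bound factors nor their absence.

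The 3 subunits of the MRN complex, which binds broken ends and starts their trimming, did not move together. NBN, the subunit that links the complex to the kinase ATM, read 10.41, 10.62 and 10.97 with both drugs, 10.91, 10.92 and 11.03 with SAHA and 12, 12.36 and 12.27 with pargyline, against 12.36, 12.48 and 12.43 with DMSO. Every array with SAHA lay below every array without it. NBN fell with both drugs (-1.75 ± 0.13, adjusted p = 2.70e-06) and with SAHA (-1.47 ± 0.13, adjusted p = 1.06e-05), and its pargyline change was -0.21 ± 0.13 (adjusted p = 0.388). The 3 further NBN probe sets fell too, with changes of -1.53 to -1.85 with both drugs and -1.58 to -1.64 with SAHA.

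MRE11, the nuclease of the complex, rose, with 9.24 ± 0.05 with both drugs, 9.20 ± 0.09 with SAHA, 9.07 ± 0.12 with pargyline and 8.82 ± 0.14 with DMSO (mean ± SD, n = 3). Its change was 0.42 ± 0.08 with both drugs (adjusted p = 0.0016) and 0.38 ± 0.08 with SAHA (adjusted p = 0.00307). Its pargyline change of 0.25 ± 0.08 (adjusted p = 0.0717) passed without DMSO replicate 3 or pargyline replicate 3 (adjusted p = 0.0189 and 0.0447). RAD50, the subunit that tethers the ends, also rose, by 0.54 ± 0.11 with both drugs and 0.47 ± 0.11 with SAHA, and its pargyline change was 0.04 ± 0.11. For each gene a further, dimmer probe set differed: that of MRE11 changed by -0.07 ± 0.05 with both drugs and 0.08 ± 0.05 with SAHA and passed in neither, and that of RAD50 rose with SAHA (0.42 ± 0.12) but not with both drugs (0.23 ± 0.12, adjusted p = 0.175).

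EXO1, an exonuclease that extends the trimming, fell in the combination alone among the comparisons with DMSO. It read 10.24, 9.25 and 9.75 with both drugs, 10.92, 10.78 and 10.44 with SAHA and 10.36, 10.34 and 10.18 with pargyline, against 10.48, 10.49 and 10.27 with DMSO. The 3 arrays with both drugs lay below those with SAHA and with DMSO and overlapped those with pargyline, and SAHA arrays reached highest. The change with both drugs was -0.67 ± 0.22 (adjusted p = 0.0281), while SAHA alone gave 0.30 ± 0.22 (adjusted p = 0.347). Without SAHA plus pargyline replicate 2 the combined change was -0.42. The call was lost without it, without SAHA plus pargyline replicate 3 and without DMSO replicate 1 or 2 (adjusted p from 0.0632 to 0.0823). BLM, a helicase that trims ends and dissolves joined molecules, averaged 9.20 ± 0.39 with both drugs, 9.90 ± 0.31 with SAHA, 9.23 ± 0.10 with pargyline and 9.43 ± 0.12 with DMSO. It passed in no comparison with DMSO, though its SAHA change of 0.47 ± 0.20 passed without SAHA replicate 3 or SAHA plus pargyline replicate 1 or 2 (adjusted p from 0.0382 to 0.0451).

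BRCA1 and BARD1 encode partners in 1 ubiquitin ligase that promotes end trimming, and they followed different courses. BRCA1 read 8.04, 7.67 and 8.36 with both drugs, 8.91, 8.96 and 9.0 with SAHA and 8.97, 9.13 and 8.89 with pargyline, against 9.03, 9.19 and 9.25 with DMSO. The arrays with both drugs lay below all 9 others, the SAHA arrays lay below the DMSO arrays by less, and the pargyline arrays overlapped both. The change was -1.13 ± 0.15 with both drugs (adjusted p = 0.000105), -0.20 ± 0.15 with SAHA (adjusted p = 0.373) and -0.16 ± 0.15 with pargyline (adjusted p = 0.559). A further BRCA1 probe set, much dimmer, fell with SAHA as well (-0.90 ± 0.27, adjusted p = 0.022) and with both drugs (-1.74 ± 0.27, adjusted p = 0.00042).

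BARD1 read 7.81, 7.61 and 7.82 with both drugs, 8.72, 8.35 and 8.55 with SAHA and 9.50, 9.29 and 9.57 with pargyline, against 9.85, 9.72 and 9.82 with DMSO. Its 4 groups formed 4 steps without overlap. BARD1 fell with both drugs, 4.15-fold (-2.05 ± 0.10, adjusted p = 2.11e-07), and with SAHA (-1.26 ± 0.10, adjusted p = 5.72e-06). Its pargyline change of -0.35 ± 0.10 had an adjusted p of 0.0527, and 0.00421 with replicate number as a block. It passed also without SAHA replicate 1 or 2 (adjusted p = 0.0373 and 0.0341).

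Among the 7 genes of strand exchange, 5 fell with both drugs, 3 with SAHA and 2 with pargyline, and none rose. Over all genes 24.0%, 23.1% and 7.45% were lower and 24.3%, 23.0% and 8.48% higher in these comparisons. RAD54L, a motor protein that helps the coated strand invade the duplex, had the largest fall of the 33 genes. It read 5.57, 4.74 and 5.16 with both drugs, 6.10, 5.88 and 5.34 with SAHA and 7.04, 7.12 and 7.03 with pargyline, against 7.48, 7.52 and 7.30 with DMSO. The SAHA-containing groups overlapped each other and lay below every array without SAHA. The change was -2.27 ± 0.22 with both drugs, 4.84-fold (adjusted p = 1.38e-05), -1.66 ± 0.22 with SAHA (adjusted p = 0.00014) and -0.37 ± 0.22 with pargyline (adjusted p = 0.347).

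RAD51AP1, which stimulates strand exchange, read 10.64, 9.84 and 10.40 with both drugs, 11.18, 11.07 and 11.24 with SAHA and 12.11, 12.32 and 12.01 with pargyline, against 12.54, 12.58 and 12.53 with DMSO. Its 4 groups did not overlap. It fell, changing by -2.26 ± 0.17 with both drugs (adjusted p = 2.45e-06) and by -1.39 ± 0.17 with SAHA (adjusted p = 7.66e-05), and its pargyline change was -0.41 ± 0.17 (adjusted p = 0.156, and 0.018 without SAHA plus pargyline replicate 2).

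RAD54B, a relative of RAD54L, moved otherwise: it averaged 9.0 ± 0.20 with both drugs, 9.59 ± 0.19 with SAHA, 8.78 ± 0.09 with pargyline and 9.30 ± 0.04 with DMSO. It fell with pargyline (-0.53 ± 0.11, adjusted p = 0.0115), and its SAHA change was 0.28 ± 0.11 (adjusted p = 0.0638, and 0.0234 and 0.0247 without SAHA replicate 3 and SAHA plus pargyline replicate 1). Its fall with both drugs (-0.31 ± 0.11, adjusted p = 0.0443) ended when any of 9 arrays was left out: all 3 of DMSO, all 3 of pargyline, SAHA replicate 2 and SAHA plus pargyline replicates 2 and 3 (adjusted p from 0.0507 to 0.149).

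RAD51C, which also acts in strand exchange, fell with pargyline alone (-0.56 ± 0.15, adjusted p = 0.033), with means of 9.83 ± 0.14 with both drugs, 10.11 ± 0.31 with SAHA, 9.25 ± 0.12 with pargyline and 9.81 ± 0.17 with DMSO. That call ended without any 1 of the pargyline arrays or without DMSO replicate 1 or 2 (adjusted p from 0.0529 to 0.119). Its SAHA change was 0.30 ± 0.15, which passed without SAHA replicate 3 (adjusted p = 0.00822), and a further probe set rose with SAHA (0.63 ± 0.15, adjusted p = 0.00681). XRCC2, of the same step, fell with both drugs (-0.68 ± 0.15) and with SAHA (-0.52 ± 0.15, adjusted p = 0.0191). The SAHA call ended without SAHA replicate 3 or DMSO replicate 2 or 3 (adjusted p from 0.0567 to 0.071), and the pargyline change of -0.44 ± 0.15 passed without DMSO replicate 1 (adjusted p = 0.032). RAD52, an annealing protein, fell with both drugs (-1.25 ± 0.31, adjusted p = 0.00638), with a mean of 3.47 ± 0.65 there and 4.72 ± 0.09 with DMSO. Its SAHA change was -0.66 ± 0.31 (adjusted p = 0.114, and 0.0205 without SAHA plus pargyline replicate 1), and 1 of its 2 further probe sets, the dimmest, stayed at -0.04 ± 0.02 with both drugs. XRCC3, the remaining gene of the step, was dim, with a mean over the arrays in the lower tertile of genes (under 2.79), and passed in no comparison.

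RPA1 and RPA2 encode subunits of the protein that coats single strands. RPA2 read 11.30, 11.14 and 11.16 with both drugs, 11.72, 11.69 and 11.43 with SAHA and 11.57, 11.71 and 11.77 with pargyline, against 12.06, 11.92 and 11.74 with DMSO. The arrays with both drugs were the lowest, and those with pargyline overlapped DMSO. RPA2 fell with both drugs (-0.70 ± 0.10, adjusted p = 0.00019) and with SAHA (-0.29 ± 0.10, adjusted p = 0.0364). The SAHA call ended without DMSO replicate 1 or 2, SAHA replicate 3 or pargyline replicate 2 (adjusted p from 0.0517 to 0.137). RPA1 changed by -0.11 ± 0.09 with both drugs, 0.08 ± 0.09 with SAHA and -0.22 ± 0.09 with pargyline, none of which passed, although the first and the last did without SAHA plus pargyline replicate 1 (adjusted p = 0.0387 and 0.0491).

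The remaining 3 recombination genes encode helicases or a dissolution factor. WRN, a RecQ helicase with an exonuclease, read 7.54, 7.61 and 7.41 with both drugs, 7.46, 7.51 and 7.50 with SAHA and 7.74, 7.88 and 7.91 with pargyline, against 7.89, 7.96 and 7.85 with DMSO. The SAHA arrays lay within the range of those with both drugs, and both groups lay below all arrays without SAHA. WRN fell, changing by -0.38 ± 0.06 with both drugs (adjusted p = 0.000332) and by -0.41 ± 0.06 with SAHA (adjusted p = 0.000222), and its pargyline change was -0.06 ± 0.06 (adjusted p = 0.599).

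RMI1, a partner of BLM in dissolving joined molecules, was set apart by pargyline. It read 10.98, 10.98 and 11.19 with both drugs, 11.63, 11.54 and 11.58 with SAHA and 11, 11.22 and 11.10 with pargyline, against 11.65, 11.62 and 11.54 with DMSO. The groups with pargyline overlapped each other, the groups without it overlapped each other, and the pairs were separate. RMI1 fell, changing by -0.55 ± 0.07 with both drugs (adjusted p = 8.52e-05) and by -0.50 ± 0.07 with pargyline (adjusted p = 0.00166), and changed by -0.02 ± 0.07 with SAHA (adjusted p = 0.949). RECQL4, another RecQ helicase, averaged 5.88 ± 0.30 with both drugs, 6.21 ± 0.36 with SAHA, 5.18 ± 0.11 with pargyline and 5.78 ± 0.07 with DMSO. It passed in no comparison with DMSO. Its SAHA change of 0.43 ± 0.18 and its pargyline change of -0.60 ± 0.18 passed without SAHA replicate 3 (adjusted p = 0.00709 and 0.0189) and without SAHA plus pargyline replicate 1 (adjusted p = 0.046 and 0.0328).

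All 3 measured Fanconi genes fell with both drugs. FANCI, which is ubiquitinated with FANCD2 at a crosslink, read 9.55, 9.28 and 9.38 with both drugs, 9.95, 9.77 and 9.80 with SAHA and 10.53, 10.69 and 10.60 with pargyline, against 10.79, 10.82 and 10.78 with DMSO. Its 4 groups did not overlap. FANCI fell, changing by -1.40 ± 0.07 with both drugs (adjusted p = 2.35e-07) and -0.96 ± 0.07 with SAHA (adjusted p = 3.06e-06), and its second probe set gave -1.46 ± 0.09 and -1.13 ± 0.09. FANCG, a core complex subunit, read 8.38, 8.11 and 8.60 with both drugs, 9.16, 8.94 and 8.88 with SAHA and 8.59, 8.84 and 8.68 with pargyline, against 9.59, 9.54 and 9.39 with DMSO. All treated arrays lay below DMSO, and pargyline arrays lay below SAHA arrays. FANCG fell, changing by -1.14 ± 0.13 with both drugs, -0.51 ± 0.13 with SAHA and -0.80 ± 0.13 with pargyline (adjusted p = 3.23e-05, 0.00704 and 0.00277).

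FANCE, a core subunit that bridges to FANCD2, rose with SAHA and fell with both drugs. It averaged 8.57 ± 0.02 with both drugs, 9.14 ± 0.17 with SAHA, 8.63 ± 0.06 with pargyline and 8.85 ± 0.12 with DMSO. The rise was 0.29 ± 0.08 (adjusted p = 0.0157) and did not pass without DMSO replicate 3 (adjusted p = 0.0596). The fall with both drugs was -0.28 ± 0.08 (adjusted p = 0.0178) and did not pass without DMSO replicate 1 or 2 or SAHA plus pargyline replicate 2 (adjusted p from 0.0526 to 0.0695). The pargyline change was -0.22 ± 0.08 (adjusted p = 0.111, 0.0464 with replicate number as a block and 0.0493 without DMSO replicate 3).

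Both mismatch genes fell with both drugs and with SAHA and passed in neither direction with pargyline. MSH3, which recognises small loops, read 8.84, 8.65 and 8.82 with both drugs, 8.87, 8.92 and 8.92 with SAHA and 9.53, 9.57 and 9.42 with pargyline, against 9.50, 9.61 and 9.73 with DMSO. Arrays with SAHA, alone or combined, lay below all arrays without it. The change was -0.84 ± 0.07 with both drugs (adjusted p = 3.84e-06), -0.71 ± 0.07 with SAHA (adjusted p = 1.44e-05) and -0.10 ± 0.07 with pargyline (adjusted p = 0.396). A further MSH3 probe set fell with both drugs (-0.37 ± 0.11) and changed by -0.10 ± 0.11 with SAHA (adjusted p = 0.659).

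MSH6, which recognises base mismatches, read 12.35, 12.19 and 12.31 with both drugs, 12.49, 12.48 and 12.44 with SAHA and 12.63, 12.61 and 12.76 with pargyline, against 12.90, 12.80 and 12.74 with DMSO. Arrays with both drugs were the lowest, SAHA arrays came next, and pargyline arrays overlapped DMSO. MSH6 fell, changing by -0.53 ± 0.06 with both drugs (adjusted p = 3.29e-05) and -0.35 ± 0.06 with SAHA (adjusted p = 0.00069), and the brighter of its 2 further probe sets gave -0.68 ± 0.11 and -0.51 ± 0.11, while the other, at a mean of 2.15, passed in neither.

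XRCC5 and XRCC6 encode Ku80 and Ku70, which together ring a broken end and open end joining. XRCC5 read 13.27, 13.16 and 13.25 with both drugs, 13.36, 13.23 and 13.29 with SAHA and 13.68, 13.55 and 13.56 with pargyline, against 13.72, 13.72 and 13.66 with DMSO. The SAHA-containing groups overlapped each other and lay below all arrays without SAHA. It fell, changing by -0.47 ± 0.05 with both drugs (adjusted p = 1.87e-05) and -0.41 ± 0.05 with SAHA (adjusted p = 5.89e-05). Its pargyline change was -0.11 ± 0.05 (adjusted p = 0.197), where a further probe set fell (-0.33 ± 0.08, adjusted p = 0.031). That further XRCC5 probe set also fell farther than the one used, changing by -1.04 ± 0.08 with both drugs and -0.71 ± 0.08 with SAHA. XRCC6 read 13.10, 13 and 13.14 with both drugs, 13.40, 13.31 and 13.27 with SAHA and 13.38, 13.38 and 13.40 with pargyline, against 13.64, 13.63 and 13.55 with DMSO. Its combination arrays were lowest and DMSO arrays highest, with the single drugs overlapping in between. XRCC6 fell, changing by -0.53 ± 0.05 with both drugs, -0.28 ± 0.05 with SAHA and -0.22 ± 0.05 with pargyline (adjusted p = 5.74e-06, 0.000526 and 0.0103). The XRCC6 falls with SAHA and with pargyline were the smallest that passed among the 33 genes, and a dim further XRCC6 probe set, at a mean of 3.26, passed in none.

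In the checkpoint the genes split. CHEK1, TOPBP1 and TIMELESS fell with both drugs and with SAHA, while the kinases ATM, ATR and CHEK2 passed in no comparison with DMSO. CHEK1, the kinase that carries the replication stress signal, read 8.67, 7.88 and 8.41 with both drugs, 9.08, 8.82 and 9.09 with SAHA and 9.78, 9.86 and 9.81 with pargyline, against 9.90, 9.86 and 9.93 with DMSO. Arrays with both drugs lay below SAHA arrays, and these below all arrays without SAHA. The change was -1.57 ± 0.16 with both drugs (adjusted p = 2.26e-05), -0.90 ± 0.16 with SAHA (adjusted p = 0.00114) and -0.08 ± 0.16 with pargyline (adjusted p = 0.813). A further CHEK1 probe set fell, changing by -2.17 ± 0.16 with both drugs and -1.61 ± 0.16 with SAHA.

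TIMELESS, part of the fork protection complex that helps activate CHEK1's kinase, read 7.78, 8.0 and 8.21 with both drugs, 8.93, 9.13 and 8.86 with SAHA and 9.18, 9.21 and 9.12 with pargyline, against 9.63, 9.68 and 9.70 with DMSO. Combination arrays were lowest and DMSO arrays highest without overlap, and the single-drug groups met in between. TIMELESS fell, changing by -1.67 ± 0.10 with both drugs, -0.70 ± 0.10 with SAHA and -0.50 ± 0.10 with pargyline (adjusted p = 5.52e-07, 0.000227 and 0.00879). A further probe set at a mean of 1.98 passed in none of them. TOPBP1, the scaffold that activates ATR, fell, changing by -0.76 ± 0.07 with both drugs and -0.47 ± 0.07 with SAHA (adjusted p = 1.21e-05 and 0.000377), and its pargyline change was -0.06 ± 0.07.

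ATM, the kinase that answers double-strand breaks, read 7.52, 7.84 and 7.97 with both drugs, 7.23, 7.27 and 7.67 with SAHA and 7.90, 7.89 and 8.05 with pargyline, against 7.51, 7.75 and 7.76 with DMSO. Pargyline arrays lay above DMSO arrays, SAHA arrays reached lowest, and the combination overlapped all groups. Its changes were 0.10 ± 0.14 with both drugs, -0.29 ± 0.14 with SAHA and 0.27 ± 0.14 with pargyline (adjusted p = 0.613, 0.15 and 0.279), the second passing without SAHA replicate 3 (adjusted p = 0.0261). ATR, the kinase that answers exposed single strands, read 10.43, 10.45 and 10.61 with both drugs, 10.54, 10.56 and 10.85 with SAHA and 10.35, 10.51 and 10.58 with pargyline, against 10.62, 10.61 and 10.87 with DMSO. Pargyline arrays lay below DMSO arrays and the other groups met or overlapped. Its changes were -0.20 ± 0.11 with both drugs, -0.05 ± 0.11 with SAHA and -0.22 ± 0.11 with pargyline (adjusted p = 0.153, 0.865 and 0.224), the last with an adjusted p of 0.016 with replicate number as a block. CHEK2, the kinase downstream of ATM, read 6.77, 6.27 and 6.33 with both drugs, 6.39, 6.35 and 5.89 with SAHA and 6.11, 6.34 and 6.13 with pargyline, against 6.42, 6.30 and 6.26 with DMSO. All 4 groups overlapped, and its changes of 0.13 ± 0.16, -0.11 ± 0.16 and -0.13 ± 0.16 with both drugs, SAHA and pargyline had adjusted p of 0.553, 0.733 and 0.666.

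UNG, the glycosylase that removes uracil from DNA, was the base excision gene. It read 11.01, 10.65 and 11.10 with both drugs, 11.44, 11.36 and 11.35 with SAHA and 12.25, 12.50 and 12.56 with pargyline, against 12.73, 12.64 and 12.43 with DMSO. All arrays with SAHA lay below every array without it, and pargyline overlapped DMSO. UNG fell, changing by -1.68 ± 0.13 with both drugs (adjusted p = 2.56e-06) and -1.22 ± 0.13 with SAHA (adjusted p = 2.65e-05), and changed by -0.16 ± 0.13 with pargyline (adjusted p = 0.489).

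**Figure D2:**
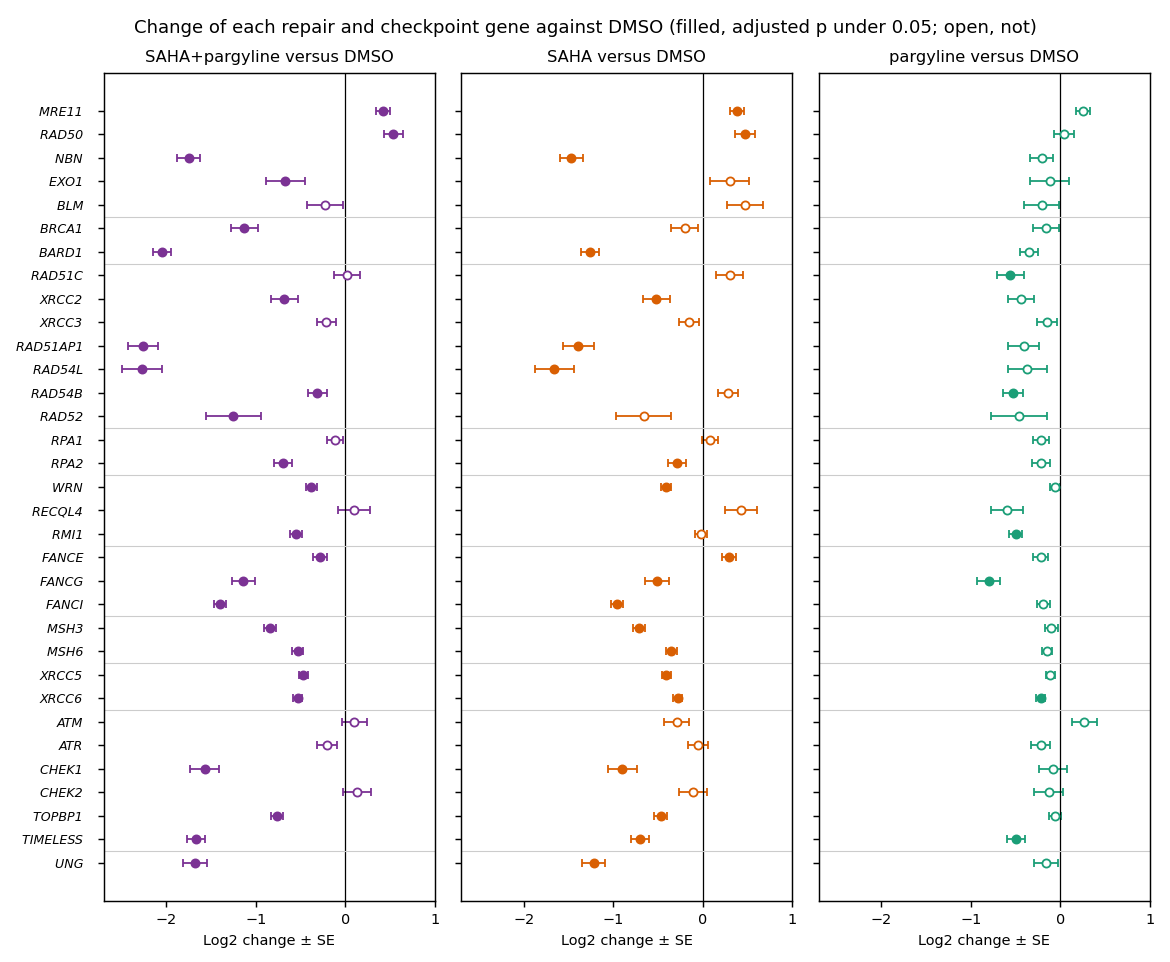
Log2 change from DMSO (x axis) of each repair and checkpoint gene (rows, by role) with SAHA plus pargyline, SAHA and pargyline; points are model estimates, bars are standard errors, and filled points have an adjusted p under 0.05. With SAHA and with both drugs RAD54L, RAD51AP1, BARD1, NBN and UNG lie farthest left, and MRE11 and RAD50 lie right of 0. With pargyline FANCG lies farthest left.

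What pargyline added to SAHA was read from the combination against SAHA alone. In that comparison 16 of the 33 genes were lower and 0 higher, where 8.71% of all genes were lower and 7.88% higher, and the median change was -0.33 beside -0.02. The largest differences were those of TIMELESS (-0.97 ± 0.10, adjusted p = 0.000784), EXO1 (-0.97 ± 0.22, adjusted p = 0.015), BRCA1 (-0.93 ± 0.15, adjusted p = 0.00312), RAD51AP1 (-0.87 ± 0.17, adjusted p = 0.00789) and BARD1 (-0.79 ± 0.10, adjusted p = 0.00161). Of the 16, 15 were also lower with both drugs than with DMSO (5.82% of all genes were lower in both comparisons, which share the combination arrays). EXO1, BLM, BRCA1, RAD54B and RMI1 were lower than with SAHA while SAHA itself had not passed against DMSO, a pattern of 1.91% of all genes, and FANCE was lower although SAHA had raised it (-0.57 ± 0.08, adjusted p = 0.0022).

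Other genes that had fallen with SAHA did not pass in this comparison, NBN (-0.29 ± 0.13, adjusted p = 0.199), RAD54L (-0.62 ± 0.22, adjusted p = 0.0963), MSH3 (-0.13 ± 0.07, adjusted p = 0.241), XRCC5 (-0.07 ± 0.05, adjusted p = 0.422) and WRN (0.03 ± 0.06, adjusted p = 0.796) among them. For XRCC5, however, a further probe set, at a mean of 11.97, was lower with both drugs than with SAHA (-0.32 ± 0.08, adjusted p = 0.0308). The average of the XRCC5 probe sets passed too (-0.19, adjusted p = 0.0451). With only these 2 groups in the fit, 7 of the 16 passed, and EXO1, BLM, RAD51AP1, RAD54B, RPA2, FANCG, CHEK1, TOPBP1 and UNG did not. Single arrays decided some of these results. NBN passed without SAHA plus pargyline replicate 3 (adjusted p = 0.0258), RAD54L without SAHA replicate 3 or SAHA plus pargyline replicate 1 (adjusted p = 0.0274 and 0.0335). EXO1 was lost without SAHA replicate 1 or 2 (adjusted p = 0.0548 and 0.0523), CHEK1 without SAHA replicate 1 or 3 (0.0692 and 0.0635), TOPBP1 without SAHA replicate 2 or 3 or SAHA plus pargyline replicate 2 (0.0526 to 0.074) and RPA2 without SAHA replicate 1 or 2 or SAHA plus pargyline replicate 2 or 3 (0.0561 to 0.0797). BLM passed (-0.70 ± 0.20, adjusted p = 0.0418) and was lost in 10 of the 12 fits that left out 1 array, all but those without SAHA replicate 3 and SAHA plus pargyline replicate 1. UNG (-0.47 ± 0.13, adjusted p = 0.0349) was lost without DMSO replicate 2, any SAHA array or SAHA plus pargyline replicate 1 or 2 (0.0522 to 0.101), and with replicate number as a block (0.0558). With that block ATM was higher with both drugs than with SAHA (0.39, adjusted p = 0.0178, against 0.108 without it).

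Relative to pargyline alone, the combination was lower for 17 of the 33 genes and higher for 3, where 23.6% of all genes were lower and 23.9% higher. RAD54L (-1.90 ± 0.22), RAD51AP1 (-1.86 ± 0.17), BARD1 (-1.70 ± 0.10), NBN (-1.54 ± 0.13), UNG (-1.52 ± 0.13) and CHEK1 (-1.49 ± 0.16) were lower by the most. RECQL4 (0.70 ± 0.18, adjusted p = 0.0101), RAD51C (0.59 ± 0.15, adjusted p = 0.0089) and RAD50 (0.49 ± 0.11, adjusted p = 0.00396) were higher. FANCG was lower (-0.34 ± 0.13, adjusted p = 0.0489), a call lost without any 1 of 10 arrays, all but SAHA replicate 1 and SAHA plus pargyline replicate 3 (0.051 to 0.176), with a change of -0.22 without SAHA plus pargyline replicate 2.

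The single drugs were also compared directly. With SAHA 13 genes were lower and 8 higher than with pargyline, where 22.7% of all genes were lower and 23.4% higher. The 8 higher were RECQL4 (1.03 ± 0.18), RAD51C (0.86 ± 0.15), RAD54B (0.81 ± 0.11), BLM (0.67 ± 0.20), FANCE (0.51 ± 0.08), RMI1 (0.48 ± 0.07), RAD50 (0.43 ± 0.11) and RPA1 (0.30 ± 0.09). Of these, BLM lost its call without SAHA replicate 1 or pargyline replicate 2 (adjusted p = 0.0709 and 0.0606), and RPA1 without SAHA replicate 1 or pargyline replicate 1 (0.0806 and 0.0804). The lower ones included RAD54L (-1.29 ± 0.22), NBN (-1.26 ± 0.13), UNG (-1.05 ± 0.13), CHEK1 (-0.82 ± 0.16) and ATM (-0.56 ± 0.14, adjusted p = 0.00931), the only comparison in which ATM passed. MSH6 (-0.20 ± 0.06) was lower and lost its call without SAHA replicate 3 or pargyline replicate 3 (0.0604 and 0.0718). XRCC3, ATR and CHEK2 passed in no comparison of the 7.

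Whether the combination went beyond the sum of the single-drug changes was tested as an interaction on the log2 scale. None of the 33 genes passed in limma, where 3.72% of all genes did. An unadjusted p under 0.05 was found for 7 of the 33 and for 2055 of the 11963 genes. In all 7 the combination lay lower than the sum: BRCA1 (-0.77 ± 0.21, adjusted p = 0.0825), TIMELESS (-0.47 ± 0.14, 0.112), BARD1 (-0.45 ± 0.15, 0.15), FANCE (-0.35 ± 0.12, 0.155), EXO1 (-0.85 ± 0.31, 0.184), CHEK1 (-0.59 ± 0.23, 0.223) and FANCI (-0.25 ± 0.10, 0.252). Of the 33, 21 lay on that side of the sum, as did 6231 of the 11963 genes, and the median was -0.07 beside 0.00. Without SAHA plus pargyline replicate 3, BRCA1 (-0.94, adjusted p = 0.0138) and TIMELESS (-0.58, adjusted p = 0.0281) passed, and with array weights these and BARD1 did (adjusted p from 0.0294 to 0.0431).

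**Figure D3:**
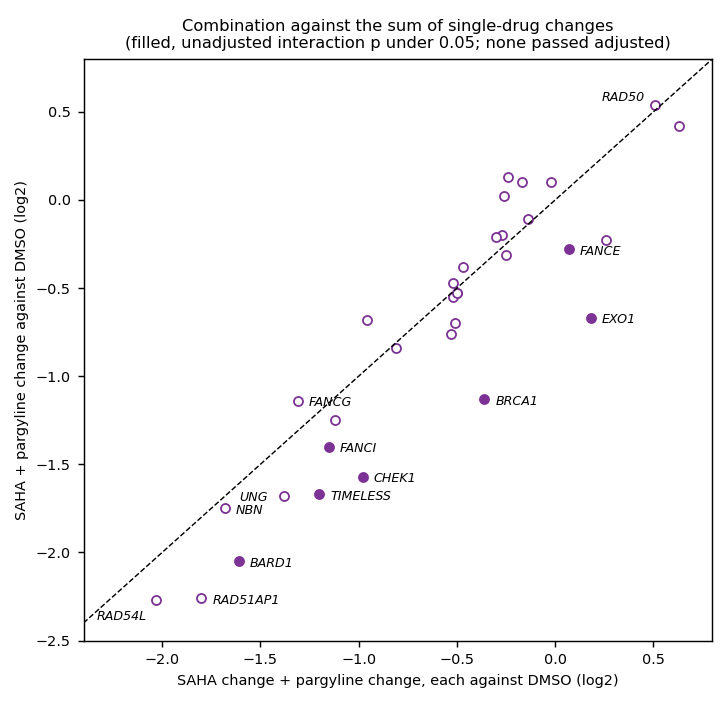
Each repair and checkpoint gene by the sum of its SAHA and pargyline changes (x axis) and its SAHA plus pargyline change (y axis), both log2 against the same DMSO arrays; on the dashed line the combination equals the sum. BRCA1, EXO1, CHEK1 and TIMELESS lie below the line, and the filled points have an unadjusted interaction p under 0.05, while none passed after adjustment.

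Other genes of the same pathways were counted from lists drawn up with earlier results of these data known. Of 62 measured, 35 fell and 9 rose with both drugs, 31 fell and 15 rose with SAHA, and 11 fell and 1 rose with pargyline. Their medians were -0.43, -0.28 and -0.11. Over all genes 24.0%, 23.1% and 7.45% were lower and 24.3%, 23.0% and 8.48% higher in these comparisons. The rises with SAHA, 24.2% of the 62, were near the share of all genes. Of 13 other recombination and Fanconi genes, 9 fell and 2 rose with both drugs, among them RAD51D, which acts in strand exchange (-3.43 ± 0.23), and DNA2, a nuclease of end trimming (-2.65 ± 0.19). With SAHA 9 fell and 3 rose, with RAD51D at -3.16 ± 0.23 and DNA2 at -1.58 ± 0.19. With pargyline 1 fell (7.69%, beside 7.45% of all genes), the Fanconi core gene FANCC (-1.11 ± 0.11, adjusted p = 0.000363). RAD51D averaged 2.52 with both drugs, 2.79 with SAHA and 5.95 with DMSO, where the lower tertile of genes lay under 2.79.

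Of 4 other mismatch genes 3 fell with both drugs, the ligase LIG1 by -1.98 ± 0.28 and MLH3 by -1.09 ± 0.26, and 1 with SAHA (MLH3, -0.85 ± 0.26). Of 7 other end joining genes 3 fell and 2 rose with both drugs, and 1 fell and 3 rose with SAHA. With pargyline 1 fell (XRCC4, -0.27 ± 0.08). Over all genes 24.0%, 23.1% and 7.45% were lower and 24.3%, 23.0% and 8.48% higher in these comparisons. LIG4, the ligase of end joining, rose by 1.08 ± 0.08 with both drugs and 0.73 ± 0.08 with SAHA, while RIF1, which shields ends from trimming, fell, changing by -0.83 ± 0.09 with both drugs. MDC1, a damage-site scaffold, rose with SAHA (0.65 ± 0.19).

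Of 11 other checkpoint genes 8 fell and 1 rose with both drugs, 8 fell and 1 rose with SAHA, and 4 fell and 1 rose with pargyline. The phosphatases that release the checkpoint were among the falls, with CDC25A at -1.97 ± 0.24 and CDC25C at -1.92 ± 0.15 with both drugs, and CDC25B at -1.68 ± 0.05 and CDC25A at -1.55 ± 0.24 with SAHA. With pargyline PKMYT1, an inhibitory kinase, fell, changing by -0.79 ± 0.17, and CLSPN, the adaptor of CHEK1's kinase, by -0.70 ± 0.09. CLSPN was dim, averaging 3.08 with pargyline and 3.78 with DMSO, where the lower tertile of genes lay under 2.79. Of 15 other base excision genes 8 fell and 3 rose with both drugs, 9 fell and 4 rose with SAHA, and 5 fell with pargyline. Beside these lists, 24.0%, 23.1% and 7.45% of all genes were lower and 24.3%, 23.0% and 8.48% higher in the same comparisons. The base excision rises with SAHA, 26.7% of the list, were near the share of all genes. The glycosylase NEIL3 fell, changing by -4.60 ± 0.30 with both drugs, averaging 4.59 there against 9.19 with DMSO, and by -2.28 ± 0.30 with SAHA. MUTYH, another glycosylase, fell, changing by -2.12 ± 0.15 with both drugs and -0.60 ± 0.15 with pargyline, and LIG3, a ligase, by -1.43 ± 0.24 with SAHA.

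Of 12 nucleotide excision genes 4 fell and 1 rose with both drugs, and 3 fell and 4 rose with SAHA. Of all genes 24.0% and 23.1% were lower and 24.3% and 23.0% higher in these comparisons. With pargyline none passed in limma, where 7.45% of all genes were lower and 8.48% higher. An unadjusted p under 0.05 was found there for 3 of the 12 and for 3260 of the 11963 genes. ERCC1, part of the excision nuclease, rose by 0.92 ± 0.10 with both drugs and 0.91 ± 0.10 with SAHA, and DDB2, which recognises ultraviolet damage, fell, changing by -0.67 ± 0.19 and -0.95 ± 0.19.

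Genes of the dividing cell were counted in the same way. Of 20 S phase genes 15 fell and 0 rose with both drugs, 14 fell and 1 rose with SAHA, and 2 fell and 1 rose with pargyline, with medians of -1.16, -0.69 and -0.28. Of 14 G2/M genes 14 fell with both drugs, 12 with SAHA and 5 with pargyline, with medians of -2.27, -1.45 and -0.49. In the same comparisons 24.0%, 23.1% and 7.45% of all genes were lower and 24.3%, 23.0% and 8.48% higher. The S phase falls and rises with pargyline were thus near the shares of all genes. The mean level of the S phase list was 9.85 to 10.26 over the arrays with both drugs, 10.48 to 10.75 with SAHA, 11.04 to 11.09 with pargyline and 11.19 to 11.37 with DMSO, and that of the G2/M list 9.35 to 10.08, 10.54 to 10.70, 11.33 to 11.53 and 11.99 to 12.10 in the same groups. Both lists ran in the same order of groups as the repair genes, and SAHA plus pargyline replicate 2 was the lowest array on all of them. CCNE1, a cyclin of S phase entry, was the S phase gene that rose with pargyline (0.54 ± 0.08, adjusted p = 0.00269). Among single genes, TYMS, which makes thymidylate, fell, changing by -3.57 ± 0.16 with both drugs and -2.73 ± 0.16 with SAHA, CDT1, a replication licensing factor, by -2.58 ± 0.12 with both drugs, and the mitotic kinase PLK1 by -5.20 ± 0.26 with both drugs, -4.26 ± 0.26 with SAHA and -1.27 ± 0.26 with pargyline. The part of these cell cycle differences in the repair gene values was not tested.

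**Figure D4:**
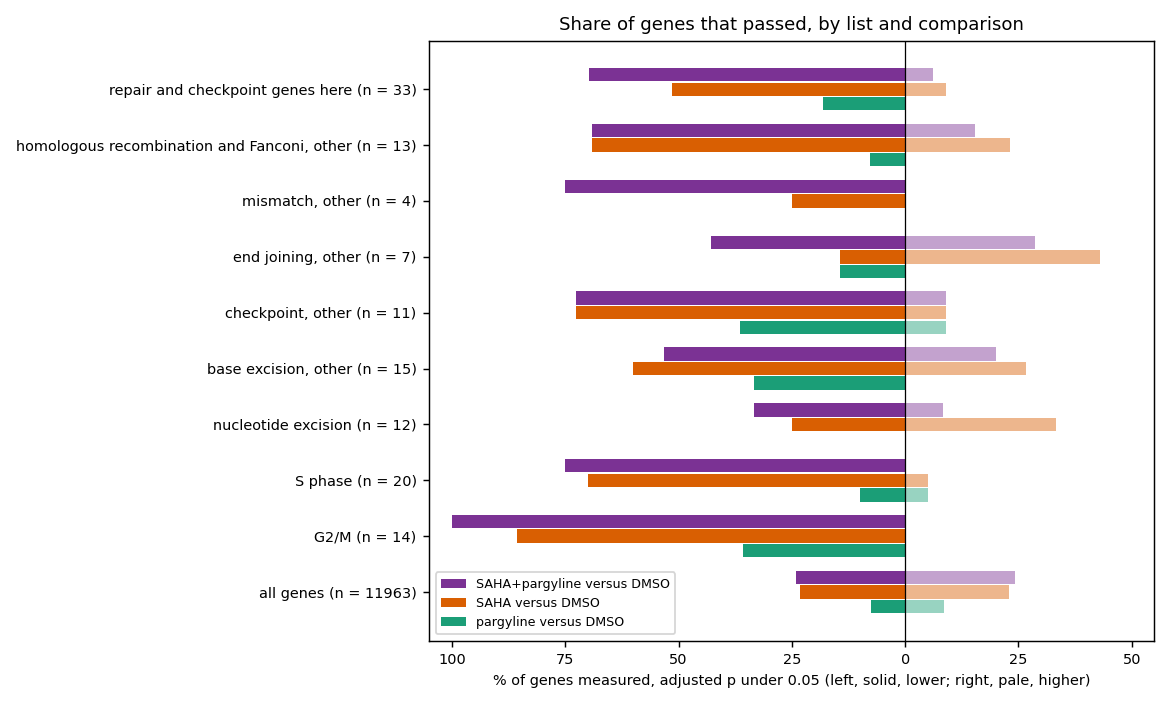
Share of the measured genes of each list (rows) that were lower (solid bars, left of 0) or higher (pale bars, right of 0) at an adjusted p under 0.05 with SAHA plus pargyline, SAHA and pargyline, each against DMSO. The 33 repair and checkpoint genes reach 69.7%, 51.5% and 18.2% lower, while all genes reach 24.0%, 23.1% and 7.45%.

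The counts depend on how arrays are scaled, since medians differed between groups. With each array centred on its own median, the median of all genes moved to -0.17 with both drugs, -0.10 with SAHA and -0.15 with pargyline, and the median of the 33 genes to -0.71, -0.40 and -0.34. The 33 genes then had 26 falls and 2 rises with both drugs (7519 and 2503 of all genes), 19 and 2 with SAHA (4070 and 2385), and 21 and 0 with pargyline (6168 and 872). Against SAHA the combination then had 17 falls and 0 rises (1347 and 715). FANCE lost its rise with SAHA under this scaling, and none of the changes that had passed turned its sign.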

How the data were processed

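RNA of 12 MDA-MB-231 cultures, 3 biological replicates in each of 4 groups set by the sample labels, was read on 1-colour Affymetrix arrays. The authors deposited log2 intensities made with RMA, per the submitters' processing notes. The software version, and whether the 12 arrays were normalized together, are not given in the sources used here. Values were used as deposited, without further scaling or filtering. Of 22277 probe sets, 62 were controls, 19064 had 1 gene, 1043 several and 2108 none in the annotation. Gene symbols follow the RefSeq table of GRCh38.p14, matched on gene identifiers. Each of 11963 genes was read by its probe set with the highest mean. The number of arrays limits precision, and the median standard error of a difference was 0.077.

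A mean per group was fitted to all 12 arrays (8 residual degrees of freedom) with lmFit and eBayes in limma 3.58.1 under R 4.3.3, for 7 comparisons, two-sided, with Benjamini-Hochberg adjustment over all genes. The procedure was tested on simulated data. The members, lists and naming rule were chosen with earlier results of these data known. All members could be named. Array values are given for the 2 in each role with the largest change that passed against DMSO, and for ATM, ATR, BRCA1, CHEK1 and CHEK2. Up to 2 genes per list and comparison were named, the largest changes that passed. Exceptions, named for other settings or single arrays, were chosen after their values were seen.

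Deviations of equally numbered replicates from their group means correlated at r from 0.12 to 0.27 between pargyline and DMSO and from 0.26 to 0.53 between SAHA plus pargyline and SAHA. These were over 0.1 for every pair, so values with replicate number as a block stand beside these comparisons where a call changed. In the other comparisons some pair lay lower, the lowest at 0.08. The labels do not say whether the numbers mark a shared day. Alternatives were quantile normalization, median centring, leaving out dim genes, averaging probe sets, array weights, the block, a prior both trended and robust, fitting only the groups compared and leaving out each array.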

Additional observations from a re-analysis of the deposited data

How the results depend on the processing

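Over all alternatives, 4374 of the single-gene results kept their side of the threshold, 109 came to pass and 97 no longer passed. Of the changes that passed, 0 were reversed. The direction of changes that passed neither in the main fit nor in the alternative was not compared. The number of repair and checkpoint genes that passed stayed within 1.5 times that reported, with these exceptions. For pargyline against DMSO, where 6 passed, centring each array on its median gave 21 and fitting only the groups compared gave 10. For SAHA plus pargyline against SAHA, where 16 passed, fitting only the groups compared gave 7. For the interaction, where 0 passed, the replicate block gave 1 (BARD1, -0.45, adjusted p = 0.021) and array weights gave 3. Centring moved all values down where a group's array median was higher, and the cause of the other shifts was not tested.

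Leaving out each array in turn gave 22 to 26 genes for SAHA plus pargyline against DMSO (25 with all arrays), 18 to 24 for SAHA (20), 5 to 8 for pargyline (6), 11 to 18 for the combination against SAHA (16), 19 to 20 for it against pargyline (20), 19 to 22 for SAHA against pargyline (21) and 0 to 2 for the interaction. With replicate number as a block the counts were 26, 25, 9, 16, 22 and 22 in the first 6 of these comparisons. That block ended the calls of FANCG for the combination against pargyline (adjusted p = 0.0818) and of UNG for the combination against SAHA (0.0558), and added BLM, RAD51C, RAD54B, RAD52 and ATM for SAHA against DMSO (adjusted p from 0.0104 to 0.0393). Fitting only the groups compared ended the calls of XRCC2, RPA2 and FANCE for SAHA and of EXO1 and RAD54B for the combination against DMSO. It was not run for the interaction, which needs all 4 groups, and XRCC3 has no value without dim genes. With 3 arrays a group, changes near the median standard error, 0.077 for all genes and 0.11 for the repair and checkpoint genes, cannot be told from 0. Larger changes could also fail to pass with all arrays. With pargyline, RPA1 (-0.22 ± 0.09, adjusted p = 0.146) and BARD1 (-0.35 ± 0.10, adjusted p = 0.0527) did not pass, whereas XRCC6 did (-0.22 ± 0.05, adjusted p = 0.0103).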
